A study of Rattus norvegicus with 16 samples.

Results

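The comparison described here follows the ventral prostate of low protein offspring from postnatal day 21 (PND21), the age of weaning, to postnatal day 540 (PND540), old age in the rat. The offspring, labelled GLLP, had mothers fed a low protein diet (6% protein) while pregnant and while nursing. 3 GLLP libraries (replicates 2, 3 and 4) were analysed at PND21 and 4 (replicates 1 to 4) at PND540, of 16 libraries in the series. The other 9 libraries came from control offspring, labelled CTR, whose dams received a normal diet with 17% protein (4 libraries at PND21, 5 at PND540), and are used below only where the change with age is compared between diets. No strain, litter or postweaning diet is named in the labels, and nothing in them says that replicates are separate animals, so p-values measure only the spread between these libraries. Total RNA was extracted from the whole lobe, and the sequenced libraries are labelled mRNA. Fewer cells of a type and less RNA per cell therefore cannot be told apart.

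The 2 ages sit in separate count tables that list different sets of genes: 28688 symbols at PND21 and 24218 at PND540, with 19709 in both. Genes were therefore compared only where a symbol occurred once in each table, and the comparison rests on the 11478 genes with a mean of at least 1 CPM (counts scaled to library size, corrected by the trimmed mean of M values) at both ages. Genes near 0 in one table, under 0.1 CPM with at least 1 CPM in the other, were kept apart: 189 near 0 at PND21 and 102 near 0 at PND540. Just inside the limit were Itga2 (1 CPM at PND21, 1.29 CPM at PND540) and Pde6c (1.47 and 1 CPM), and just outside it Gngt2 (0.999 and 2.1 CPM) and Rrm2 (33.9 and 0.997 CPM), all named because of their values.

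The rat ventral prostate is a branched gland of secretory luminal cells resting on a thin layer of basal cells, wrapped in smooth muscle and a collagenous stroma. In the weeks around weaning its ducts branch and its cells divide, under the control of androgens and of growth signals passed between stroma and epithelium. The adult lobe secretes large amounts of prostatein, a protein built from secretoglobin chains, and in old rats the gland is known for epithelial atrophy and for infiltrates of immune cells.

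Of the 13694 genes tested, 36.2% were called at an adjusted p under 0.05 (edgeR's quasi-likelihood test with Benjamini-Hochberg adjustment over all tested genes), 2611 higher (19.1%) and 2341 lower (17.1%) at PND540. Among the 11478 genes with at least 1 CPM at both ages, 3722 were called (32.4%), 2035 higher (17.7%) and 1687 lower (14.7%), and 1207 of the higher and 1159 of the lower calls were changes of at least 2-fold. The 3 libraries of one age and the 4 of the other did not overlap for 41.1% of these genes. The split of calls depended on the scaling: with library size alone 1428 were higher and 2239 lower, and the median log2 fold change moved from 0.03 to -0.15. Without PND21 replicate 3 the calls fell to 2433 (1315 higher, 1118 lower). The gene lists below were read against these shares, and a log2 fold change is always PND540 against PND21.

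The 7 libraries held 29753730 to 39161666 counts. Replicates of one age correlated at 0.946 or more in log2 CPM, and libraries of different ages at 0.807 to 0.878. Mitochondrial genes took 3.66 to 4.78% of counts at PND21, where 13 are listed, and 0.015 to 0.0296% at PND540, where 2 are listed. The tissue label held against its markers: Hoxb13, a homeobox gene of prostate epithelium, stood at 475, 567 and 516 CPM at PND21 and at 591, 475, 753 and 477 CPM at PND540, and the seminal vesicle gene Svs4 was at or near 0 in every library. Age and count table, with its own gene set, cannot be told apart in any result below, and steps that a table alone could set are described with the largest changes.

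**Figure D1:**
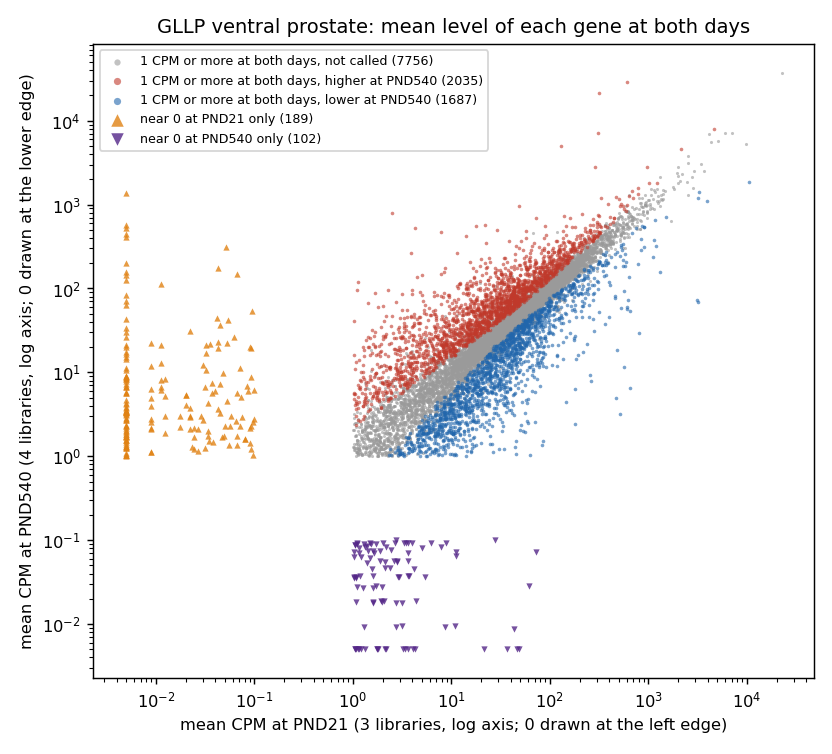
Mean CPM of each gene at PND21 (3 libraries, x axis) and PND540 (4 libraries, y axis), both on log axes; red and blue points are called higher and lower at PND540, and triangles are genes near 0 at one age, with a mean of 0 drawn at the edge. Of the genes with at least 1 CPM at both ages, 2035 were called higher and 1687 lower, and uncalled genes are grey. The 189 and 102 genes near 0 at one age form separate strips.

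Genes of the cell cycle and DNA replication were lower at PND540. Of 56 such genes with at least 1 CPM at both ages, 47 fell and 1 rose, with a median log2 fold change of -2.08 against 0.03 for all genes of that level. Top2a, the topoisomerase that untangles replicated chromosomes, stood at 58.2, 72.2 and 118 CPM in the PND21 libraries and at 0.945, 0.662, 2.41 and 1.41 CPM in the PND540 libraries, which gave a log2 fold change of -5.93 with an SE of 0.44 (adjusted p = 2.4e-05, edgeR). Mki67, which encodes the proliferation antigen Ki-67, went from 46.2, 54.7 and 68.4 CPM to 1.21, 0.625, 2.98 and 3.06 CPM. Every PND21 library was above every PND540 library for both genes, by a wide margin.

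Replication genes were among those that fell. Mcm6, a subunit of the replicative helicase, was 83.7 ± 10.1 CPM (SD, n = 3) at PND21 and 12.9 ± 2.05 CPM (SD, n = 4) at PND540, and Gins2, which joins the same helicase, was 60.6 ± 9.33 and 2.52 ± 0.338 CPM. Tk1, the thymidine kinase of S phase, fell 34.6-fold and Prc1, a spindle midzone protein, 29.7-fold. Ccnd1, the cyclin that starts G1, kept a mean of 62 ± 25.5 CPM at PND540 after 216 ± 4.88 CPM at PND21. Mcm2, another helicase subunit, did not pass the test: it stood at 131, 128 and 137 CPM and then at 121, 108, 129 and 89.3 CPM. Kif2c, a kinesin that depolymerises microtubules, was the 1 gene of the list that rose, from 20.7, 27.7 and 35.7 CPM to 72.8, 66.5, 78.6 and 41.9 CPM (log2 fold change 1.21, SE 0.26, adjusted p = 0.00607, edgeR). A further 32 genes of the list were tested but stood under 1 CPM at PND540, and 31 of them were called lower. All 32 had at least 1 CPM at PND21, so a lower mean at PND540 was built into this choice.

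Promoters of this list are shown because its genes moved together and share letters near their starts. The stretches are the 250 bases before the start site in RefSeq's table (build GRCr8), written 5′ to 3′ on the gene's strand, with CCAAT and TTTGAA in capitals on either strand (as ATTGG and TTCAAA on the other); CCAAT is the box bound by NF-Y, and TTTGAA the core of the cell cycle homology region.
Top2a (chr10:84473094-84473343, minus strand): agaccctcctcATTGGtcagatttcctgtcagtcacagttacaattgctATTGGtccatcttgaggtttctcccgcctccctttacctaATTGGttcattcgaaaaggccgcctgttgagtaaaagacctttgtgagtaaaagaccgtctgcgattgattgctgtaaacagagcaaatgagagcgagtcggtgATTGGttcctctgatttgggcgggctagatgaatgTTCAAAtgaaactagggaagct
Mki67 (chr1:199952594-199952843, minus strand): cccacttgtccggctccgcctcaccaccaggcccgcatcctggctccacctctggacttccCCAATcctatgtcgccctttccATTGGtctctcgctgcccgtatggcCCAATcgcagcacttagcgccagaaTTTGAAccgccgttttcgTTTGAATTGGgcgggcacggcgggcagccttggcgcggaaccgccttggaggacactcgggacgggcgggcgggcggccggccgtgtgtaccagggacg
Mcm6 (chr13:42404353-42404602, minus strand): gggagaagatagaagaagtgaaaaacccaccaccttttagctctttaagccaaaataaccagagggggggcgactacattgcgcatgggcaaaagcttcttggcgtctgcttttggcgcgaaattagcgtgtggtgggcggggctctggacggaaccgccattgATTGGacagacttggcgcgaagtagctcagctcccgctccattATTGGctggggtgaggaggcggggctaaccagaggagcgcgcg
CCAAT occurred in 55 of the 73 promoters found for the listed genes (75.3%), in 31 of 38 promoters of those that fell with at least 1 CPM at both ages (81.6%), and in 12549 of all 33469 promoters in the table (37.5%), counted over the 250 bases before and 50 after the start. TTTGAA occurred in 45.2% of the listed and 18.3% of all promoters, and both together in 37% and 7.41%. Among the listed genes of at least 1 CPM at both ages, TTTGAA was in 12 of 38 promoters of those that fell (31.6%) and in 4 of 7 of those not called (57.1%), and both motifs were in 28.9% of those that fell. The promoter of Mcm6 holds CCAAT on the opposite strand in both its matches and no TTTGAA in the printed window. These matches describe letters and were not tested as binding sites.

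Inhibitors of the cell cycle did not move as a group: of 24 genes 4 rose and 5 fell. Cdkn2b, the inhibitor p15 of the cyclin D kinases, stood at 5.8, 5.2 and 7.69 CPM at PND21 and at 25.6, 25.2, 26.2 and 36.9 CPM at PND540, 4.58-fold higher (adjusted p = 0.000163, edgeR). Gadd45b, a stress-induced growth arrest gene, rose 4.1-fold and Rb1, the retinoblastoma protein, 2.36-fold. Cdkn2c (p18), in contrast to its relative Cdkn2b, fell from 8.47 ± 2.25 to 1.56 ± 0.452 CPM, and Cdkn1c (p57), an imprinted inhibitor, from 23.7 ± 5.23 to 5.67 ± 1.96 CPM. Without PND540 replicate 4 the number that fell went from 5 to 8.

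Collagens were the other large group that was lower at PND540. Of 23 fibrillar and network collagen genes, 19 fell and none rose (median log2 fold change -2.83). Col1a1, the main chain of type I collagen, stood at 2591, 3140 and 3781 CPM at PND21 and at 95.4, 13.7, 79.1 and 85.5 CPM at PND540, which gave a log2 fold change of -5.53 with an SE of 0.60 (adjusted p = 0.000187, edgeR). Col3a1, type III collagen, went from 2747, 3593 and 3011 CPM to 93.3, 18.4, 83 and 97 CPM. For both genes the ages were far apart, and PND540 replicate 2 was clearly the lowest library of its age. Col5a2, Col6a2 and Col7a1, chains of types V, VI and VII, fell 12.5-fold, 12.2-fold and 10-fold. Col1a2, the partner chain of Col1a1, cannot be read: it was at 0.111, 0.08 and 0.0672 CPM at PND21, near 0 in the PND21 table, and is named for that value.

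Proteins that fold, modify and crosslink collagen fell with it, 15 of 23 with no gene higher (1 higher without PND540 replicate 2, 3 or 4). Serpinh1, the collagen chaperone HSP47, went from 267, 306 and 372 CPM to 73.9, 21.7, 42.7 and 72.6 CPM (log2 fold change -2.58, adjusted p = 0.000976, edgeR). Loxl2, a lysyl oxidase that crosslinks collagen, fell 8.41-fold, Plod2, a lysyl hydroxylase, 7.52-fold, and Fkbp10, a collagen prolyl isomerase, 6.26-fold. Sparc, a collagen-binding matricellular protein, was 1304 ± 82.1 CPM at PND21 and 157 ± 81.3 CPM at PND540.

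Elastic fibre genes fell in 12 of 15 cases and rose in none (median -2.00). Eln, elastin itself, stood at 378, 444 and 605 CPM and then at 26.8, 5.37, 17.8 and 23.6 CPM, 25.9-fold lower, and Mfap2, a microfibril protein, fell 21.1-fold. Of 28 proteoglycans and matricellular proteins 17 fell and none rose (1 rose without PND540 replicate 2). Postn, periostin, a matrix protein of growing and wounded stroma, had the smallest p of the genes that fell with at least 1 CPM at both ages: 172, 187 and 183 CPM at PND21 and 6.84, 6.44, 6.82 and 4.96 CPM at PND540 (log2 fold change -4.85, SE 0.16, adjusted p = 4.03e-07, edgeR). Vcan, versican, fell 7.19-fold, and the laminin chains Lama4 and Lamb1 5.77-fold and 6.82-fold. Dcn, decorin, a proteoglycan that coats collagen fibrils, did not pass the test (401 ± 53 CPM at PND21, 251 ± 122 CPM at PND540, adjusted p = 0.195, edgeR).

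Matrix-degrading enzymes were lower as well, 9 of 20 with 1 higher (median -0.63). Mmp2 and Mmp14, a gelatinase and its membrane-bound activator, went from 159 ± 27.7 to 29.1 ± 12.7 CPM and from 94.7 ± 15.3 to 20.9 ± 10.4 CPM, and Adam19, a membrane metalloprotease, fell 9.41-fold. Mmp15, a membrane-type metalloprotease, was the gene that was higher, at 57.2, 79.9 and 78.2 CPM and then at 210, 338, 59 and 225 CPM. Its ages overlapped through PND540 replicate 3, and the call was lost without any 1 library of PND21 and without PND540 replicate 1, 2 or 4. Without PND540 replicate 3 the genes that rose were 2. Timp4, an inhibitor of these enzymes, stood at 114 ± 24.3 and 191 ± 57.6 CPM and did not pass (adjusted p = 0.0527, edgeR).

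**Figure D2:**
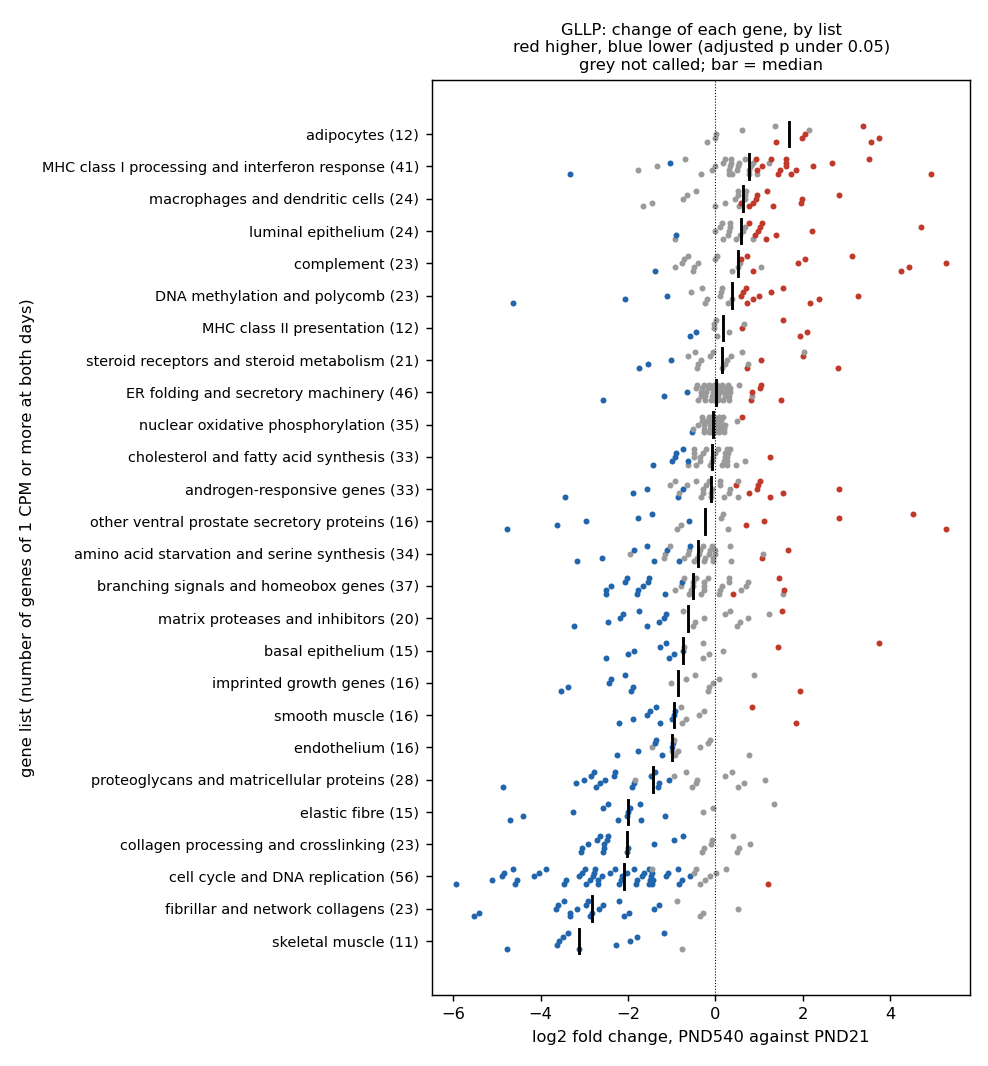
Log2 fold change, PND540 against PND21, of each gene with at least 1 CPM at both ages in 26 gene lists (y axis, number of genes in brackets); red points were called higher, blue lower, grey not called, and the black bar is the median. Skeletal muscle, collagen and cell cycle genes lie lowest (medians -3.12, -2.83 and -2.08) and adipocyte genes highest (1.69), while lists of cellular housekeeping sit at 0.

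Smooth muscle genes, which mark the sheath around the ducts, fell in 9 of 16 cases and rose in 2. Acta2, smooth muscle actin, stood at 876, 1012 and 1435 CPM and then at 259, 133, 230 and 337 CPM, 4.62-fold lower (adjusted p = 0.000721, edgeR). Myh11, the smooth muscle myosin heavy chain, fell 3.71-fold and Tagln, transgelin, 2.97-fold. Mylk, myosin light chain kinase, was called higher (1018 ± 102 and 1829 ± 704 CPM, adjusted p = 0.0447, edgeR), a call lost without any 1 PND21 library or PND540 replicate 1 and with library size alone. Without PND21 replicate 4 the number that fell went from 9 to 5. The 6 smooth muscle markers summed to 3845 to 4557 CPM at PND21 and 682 to 1748 CPM at PND540, so that the whole list of markers moved with the matrix genes; its part in their change was not tested.

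Endothelial genes fell in 7 of 16 cases (4 without PND21 replicate 3, 11 by DESeq2) and rose in none (1 without PND540 replicate 2). Cdh5, the cadherin of endothelial junctions, was at 53.1, 46.9 and 45.1 CPM and then at 13.3, 4.78, 9.54 and 13.2 CPM, 4.75-fold lower (adjusted p = 0.000738, edgeR), and the receptors Tie1 and Kdr fell 2.58-fold and 3.41-fold. Eng, endoglin, and Plvap, a protein of fenestrae, were lower in each PND540 library than in any PND21 library without passing the test (adjusted p = 0.0593 and 0.18, edgeR). Among 10 nerve and Schwann cell genes 3 rose and 3 fell: S100b rose 5.15-fold, while Prph, peripherin of peripheral neurons, fell from 10.2 ± 0.754 to 2.82 ± 1.65 CPM. Those counts rest on few libraries, since without PND21 replicate 4 only 1 gene was left in each direction, and without PND21 replicate 3 or PND540 replicate 1 only 1 of the 3 falls.

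Adipocyte genes were higher, 6 of 12 with none lower (median 1.69). Retn, resistin, stood at 0.296, 1.92 and 0.906 CPM at PND21 and at 10.8, 11.4, 7.65 and 14.6 CPM at PND540 (log2 fold change 3.39, SE 0.57, adjusted p = 0.00188, edgeR). Adipoq, adiponectin, the hormone that defines adipocytes, was at 0.813, 10 and 1.58 CPM and then at 54, 30.5, 28.8 and 84.4 CPM, and Plin4, a lipid droplet coat protein, rose 3.97-fold. Cfd, adipsin, rose 4.13-fold. All 4 PND540 libraries lay above the PND21 libraries for these 4 genes, and PND21 replicate 3 was the highest of its age for Adipoq, Retn and Cfd. Acsl1, a fatty acyl-CoA ligase that epithelium also makes, did not pass the test (704 ± 44.9 and 718 ± 152 CPM).

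Genes of skeletal muscle, a tissue that is not part of the gland, fell in 10 of 11 cases. Mylpf, the fast regulatory myosin light chain, stood at 69.2, 42.7 and 60.2 CPM at PND21 and at 4.95, 4.63, 4.6 and 4.36 CPM at PND540, which gave a log2 fold change of -3.63 with an SE of 0.20 (adjusted p = 3.61e-06, edgeR). Tnnt3 and Tnnc2, fast troponins, fell 27.4-fold and 11.9-fold, Casq1, the calcium store protein of fast fibres, 10.3-fold, and Acta1, skeletal actin, 8.67-fold. A further 16 genes of the list were under 1 CPM at PND540 and called lower. Of these, 15 had at least 1 CPM at PND21, so that a lower mean at PND540 was again built into the choice. The 7 skeletal muscle markers summed to 1027 to 1206 CPM at PND21 and 36.9 to 118 CPM at PND540, and the CTR libraries, described at the end, held little of these transcripts at PND21.

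Luminal epithelial genes were higher in 9 of 24 cases and lower in 1 (2 without PND540 replicate 2). Cldn4, a tight junction claudin, was at 378, 348 and 447 CPM and then at 1045, 1446, 613 and 1004 CPM, 2.63-fold higher (log2 fold change 1.39, SE 0.28, adjusted p = 0.00443, edgeR), with no overlap between the ages. Ehf, an epithelial ETS factor, rose 2.23-fold, and Cd24, a luminal surface protein, 2.11-fold. Prom1 (CD133) was the one that fell, from 356 ± 14.8 to 190 ± 26.3 CPM. Spint2, an epithelial protease inhibitor, did not pass the test (1465 ± 103 and 1469 ± 286 CPM).

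Basal epithelial genes fell in 8 of 15 cases (5 without PND21 replicate 3) and rose in 2. Krt15, a basal keratin, stood at 482, 644 and 1226 CPM and then at 127, 354, 157 and 150 CPM, 3.98-fold lower (adjusted p = 0.006, edgeR). Col17a1, the hemidesmosomal collagen, fell 3.65-fold and Ngfr, the p75 neurotrophin receptor, 5.62-fold. The defining basal keratins Krt5 and Krt14 did not pass the test, and their ages overlapped: Krt5 was at 54.5, 96.3 and 114 CPM and then at 87.5, 89.8, 57 and 82.4 CPM, and Krt14 was 34.8 ± 11.1 and 28.7 ± 4.7 CPM. Sncg, gamma-synuclein, rose from 3.3 ± 0.824 to 44.4 ± 33.5 CPM, against the list. Of 5 urothelial genes Krt7, a keratin of ducts and urothelium, was the one called, at 16, 18.5 and 31.7 CPM and then at 60.7, 35.6, 42 and 317 CPM. PND540 replicate 4 stood far above the rest for Krt7, and the call was lost without any 1 PND21 library and with library size alone. Without PND540 replicate 4, 4 of the 5 genes were called lower.

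**Figure D3:**
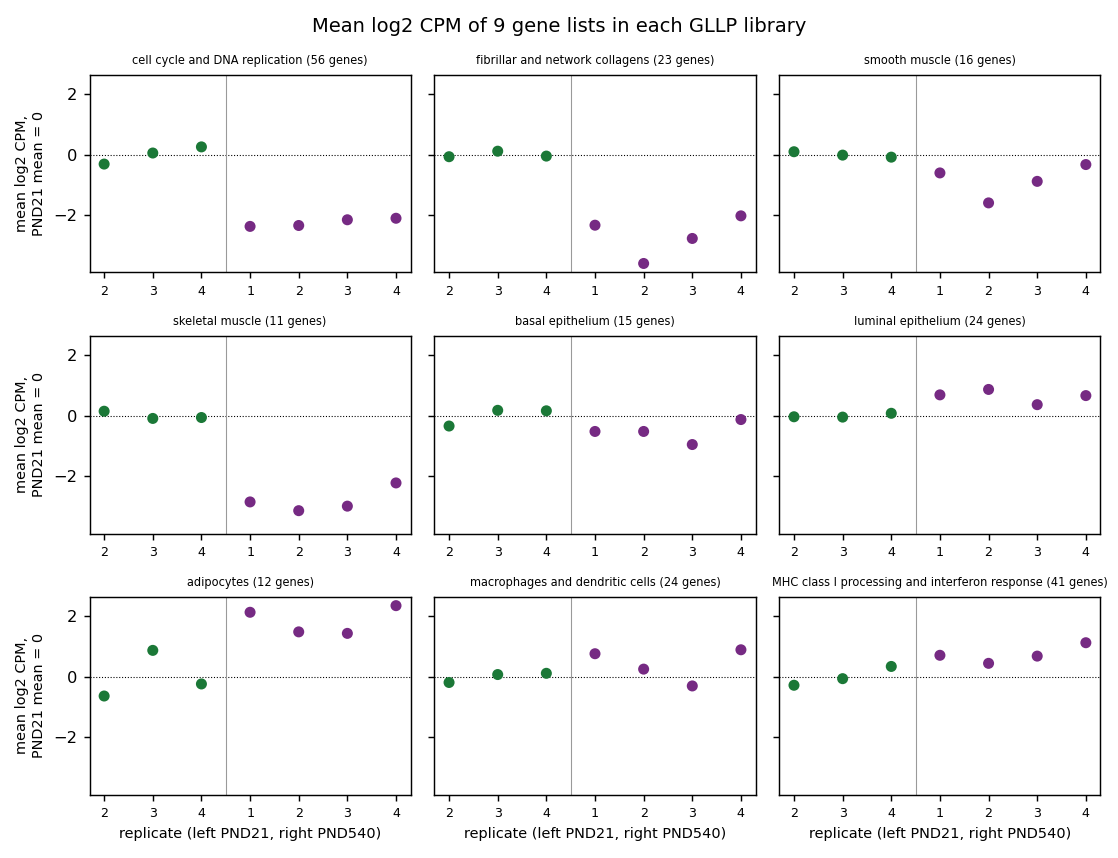
Mean log2 CPM of the genes of 9 lists in each GLLP library, with the PND21 mean set to 0 (y axis), against the replicate number (x axis; green PND21, purple PND540). Cell cycle and skeletal muscle genes were low in all 4 PND540 libraries, and collagen and smooth muscle genes were lowest in PND540 replicate 2 (-3.61 and -1.6).

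Of 3 secretoglobins, the family that forms prostatein, 1 rose and none fell (1 without PND540 replicate 1). Scgb2a2 stood at 237, 308 and 396 CPM at PND21 and at 27869, 6391, 33152 and 18015 CPM at PND540, which gave a log2 fold change of 6.09 with an SE of 0.65 (adjusted p = 0.000161, edgeR). The other two did not pass the test. Scgb1d2 was at 24969, 17520 and 25029 CPM and then at 61844, 10843, 51299 and 25004 CPM (adjusted p = 0.333, edgeR), and Scgb2a1 at 11560, 8841 and 9163 CPM and then at 9607, 1852, 4966 and 4747 CPM (adjusted p = 0.161, edgeR). The ages overlapped for both, and PND540 replicate 2 was the lowest library of its age for all 3 genes. Secretoglobin genes are close copies of each other, the tables do not list the same family members, and how reads were shared between copies is not given in the sources used here.

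Of 16 other secretory proteins 5 rose and 6 fell. Zg16b, a lectin-like secreted protein named for its fold change, was at 665, 586 and 569 CPM and then at 39974, 19970, 34610 and 19945 CPM, 47.2-fold higher (adjusted p = 2.13e-05, edgeR). Clu, clusterin, a chaperone that rises in the prostate when androgen falls, went from 161, 55.3 and 173 CPM to 3751, 6993, 1383 and 8067 CPM, and Mme, the membrane peptidase neprilysin, rose 2.18-fold. Tgm4, the prostate transglutaminase, stood at 16.1, 11.6 and 15.4 CPM and then at 1.89, 1.29, 0.452 and 1.05 CPM, 12.2-fold lower, and Tf, transferrin, fell 3.39-fold. Pbsn, probasin, an androgen-regulated lipocalin and an epithelial marker, was at 193, 224 and 345 CPM and then at 5.86, 29.2, 0.754 and 1.51 CPM (log2 fold change -4.77, SE 1.05, adjusted p = 0.00731, edgeR), with the PND540 libraries far apart from each other. Lao1, an L-amino acid oxidase, fell from 10402 ± 5968 to 1852 ± 539 CPM, while Cd55, a complement regulator, did not pass the test (6984 ± 913 and 7162 ± 3157 CPM). Leaving out any 1 library other than PND540 replicate 2 reduced the 5 secretory genes that rose to 3.

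Kallikreins could hardly be compared, because the tables name different members of this family of close copies. Klk1, tissue kallikrein, took 7544, 4580 and 8804 CPM at PND21 and at most 0.189 CPM at PND540, where Klk1c9, unnamed at PND21, took 0.713% of counts. Klk1c8 was the 1 kallikrein with at least 1 CPM at both ages, at 24, 7.76 and 56 CPM and then at 905, 21.4, 869 and 196 CPM. The ages overlapped through PND540 replicate 2, and its call (adjusted p = 0.028, edgeR) was lost without PND21 replicate 2 or 3 or PND540 replicate 1 or 3.

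**Figure D4:**
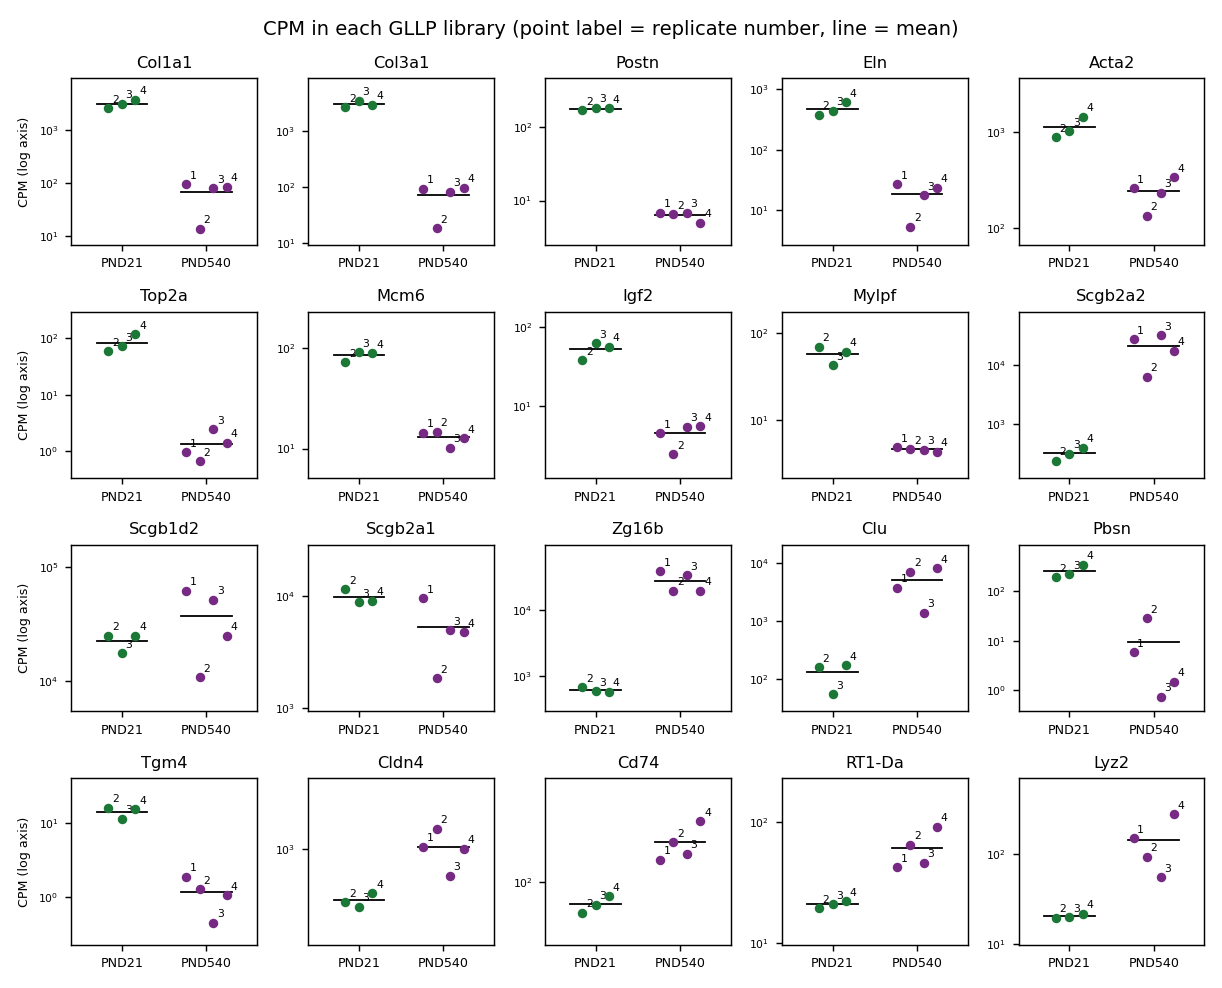
CPM of 20 genes in each GLLP library (log y axis, 3 libraries at PND21 in green and 4 at PND540 in purple, labelled by replicate number; the line is the mean of the age). Col1a1 and Eln were lowest in PND540 replicate 2 (13.7 and 5.37 CPM), which was also the lowest PND540 library for Scgb2a2, Scgb1d2 and Scgb2a1 and the highest for Pbsn.

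Genes that respond to androgen, taken as a list of 33, moved in both directions (8 rose, 5 fell, median -0.09). Zbtb16, a zinc finger repressor induced by steroid receptors, was at 82.7, 55.9 and 31.4 CPM and then at 391, 415, 394 and 404 CPM, 7.08-fold higher (adjusted p = 0.000178, edgeR). Homer2, a scaffold protein, fell 10.8-fold and Cenpn, a centromere protein, 3.67-fold. Slc45a3, a solute carrier also known as prostein, and Amd1, an enzyme of polyamine synthesis, did not pass the test (2092 ± 57.8 and 1897 ± 446 CPM for Slc45a3). Rises went from 8 to 2 without PND21 replicate 3 and to 5 without PND21 replicate 4, and falls from 5 to 10 without PND540 replicate 3 and to 11 with library size alone.

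Esr2, the oestrogen receptor of prostate epithelium, was 26.1 ± 8.93 and 19.8 ± 8.8 CPM, and Esr1 was under 1 CPM at both ages. Of 21 genes of steroid reception and metabolism 4 rose and 3 fell. Hsd17b10, a mitochondrial steroid dehydrogenase, rose from 12.2, 13.7 and 17.3 CPM to 111, 96.6, 116 and 79.3 CPM, and Nr3c2, the mineralocorticoid receptor, 4.02-fold. PND21 replicate 4 was the lowest library for Nr3c2 and stood low for genes of long genomic span: its centred mean was -0.263 over the genes of the longest span quartile and 0.189 over the shortest (log2 CPM). Span also moved with the change with age: 25.2% of genes in the longest quartile were called higher at PND540 (median log2 fold change 0.20) and 13.3% in the shortest (median -0.06), and its part in the rises reported here was not tested. Both steroid 5-alpha-reductases, which make dihydrotestosterone, were called lower, Srd5a1 at 18.8 ± 4.32 and 9.36 ± 2.12 CPM and Srd5a2 at 12.3 ± 6.23 and 3.65 ± 1.96 CPM. The falls of this list went from 3 to 0 without PND21 replicate 3 and to 1 without PND21 replicate 4, and that of Srd5a2 was also lost without PND21 replicate 2 or PND540 replicate 1 or 3.

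Imprinted genes of growth control were lower, 7 of 16 with 1 higher (median -0.84). Igf2, the fetal insulin-like growth factor, stood at 38.1, 62.3 and 55.8 CPM and then at 4.53, 2.43, 5.43 and 5.52 CPM, 11.6-fold lower (log2 fold change -3.54, SE 0.31, adjusted p = 5.34e-05, edgeR). Plagl1, a zinc finger gene of the same network, fell 10.3-fold and Sgce, sarcoglycan epsilon, 3.84-fold. Gnas and Igf2r did not pass the test (623 ± 2.68 and 450 ± 85.1 CPM for Gnas). Nnat, neuronatin, was called higher (means of 7.23 and 27.7 CPM), a call lost without PND21 replicate 3 or 4. Dlk1, another imprinted gene, was near 0 at PND540 (27.2, 103 and 54.4 CPM at PND21 and at most 0.113 CPM at PND540).

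In the Igf pathway 5 of 22 genes rose and 3 fell. Igf1r, the receptor for both Igf ligands, was at 10.1, 11 and 7.39 CPM and then at 44.8, 98.6, 39.4 and 64.4 CPM, 6.51-fold higher (adjusted p = 0.000437, edgeR). Igf1, the ligand made by stroma, named here after its values were seen, was 5.92 ± 1.84 and 25.5 ± 14.4 CPM (adjusted p = 0.0124, edgeR). Its call was lost without PND21 replicate 4 and with the replicate number as a block. Igfbp5, the binding protein, fell from 383, 383 and 421 CPM to 51.7, 20.9, 31.6 and 78.4 CPM, and Akt2, a kinase below the receptor, rose 1.7-fold. Rises went from 5 to 3 without PND21 replicate 4, and falls from 3 to 6 without PND540 replicate 4.

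Signals of branching morphogenesis and homeobox genes fell in 12 of 37 cases and rose in 3 (median -0.51). Wnt7b, a ligand from epithelium, was at 51.2, 44.1 and 52.5 CPM and then at 13.7, 17.2, 14.9 and 11.4 CPM, 3.44-fold lower (adjusted p = 9.76e-05, edgeR). Wnt4, also a ligand, fell 5.66-fold, and Smo, the signal transducer of hedgehog, from 310 ± 26.4 to 97.7 ± 26 CPM. Hoxd11, a posterior homeobox gene, rose from 22.2 ± 3.87 to 61.3 ± 5.99 CPM and Hmga1, a chromatin protein, 2.96-fold. The prostate factors Hoxb13 and Foxa1 did not pass the test (Foxa1 249 ± 74.5 and 311 ± 19.3 CPM).

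Of 23 genes of DNA methylation and polycomb repression 11 rose (7 without PND21 replicate 3) and 3 fell. The 3 that fell also belong to dividing cells: Uhrf1, which brings the maintenance methyltransferase to new DNA, went from 30.1 ± 7.15 to 1.21 ± 0.0841 CPM, Ezh2, the polycomb methyltransferase of proliferating tissue, from 25.4 ± 0.746 to 6.06 ± 1.77 CPM, and Dnmt1, the maintenance methyltransferase, from 78.4 ± 5.45 to 36.5 ± 5.57 CPM. Ezh1, the polycomb methyltransferase of resting tissue, rose 1.83-fold, from 152, 134 and 126 CPM to 254, 306, 229 and 219 CPM (adjusted p = 0.00306, edgeR).

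Of 41 genes of class I antigen processing and the interferon response 15 rose and 2 fell (1 without PND21 replicate 4 or PND540 replicate 1 or 3; median 0.78). Among the 15 is Psme1, described below with large steps in which table and age cannot be told apart. B2m, the light chain of class I molecules, was at 278, 265 and 278 CPM and then at 494, 469, 439 and 887 CPM, 2.09-fold higher (adjusted p = 0.0117, edgeR). RT1-CE5, a class I heavy chain, rose 3.32-fold and Ddx58, which encodes the RNA sensor RIG-I, from 3.03 ± 0.217 to 19.2 ± 4.45 CPM. Ubd, the ubiquitin-like protein FAT10 and one of the largest changes by fold, stood at 1.7, 0.827 and 4.33 CPM and then at 87.7, 84.4, 17.7 and 190 CPM. RT1-T24-4, another class I gene, fell 9.97-fold; class I genes are near copies of each other, and how reads were split between them is not given in the sources used here.

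Of 12 class II genes 4 rose and 2 fell, the latter pair (Ifi30 and Rfx5) called in the full set and lost together without PND21 replicate 3 or 4 or PND540 replicate 2 or 3. Cd74, the invariant chain that fills the class II groove, was at 51.6, 61 and 73.6 CPM and then at 162, 234, 183 and 369 CPM (log2 fold change 1.93, SE 0.30, adjusted p = 0.00121, edgeR). RT1-Da, the class II alpha chain, rose from 19.3, 20.9 and 22.2 CPM to 42.2, 64.9, 45.9 and 91.4 CPM, and Ctss, the protease that trims the invariant chain, 4.32-fold. PND540 replicate 4 was the highest library for B2m, Cd74, RT1-Da and Ctss. The 250 bases before the starts of RT1-Da and B2m are shown as examples of the letters searched in these lists (RefSeq, build GRCr8), with the Y box CTGATTGG in capitals for RT1-Da and a tandem GAAA repeat with any 2 bases between its copies, as in interferon response elements, in capitals for B2m; the Y box holds CCAAT on its other strand.
RT1-Da (chr20:4515165-4515414, plus strand): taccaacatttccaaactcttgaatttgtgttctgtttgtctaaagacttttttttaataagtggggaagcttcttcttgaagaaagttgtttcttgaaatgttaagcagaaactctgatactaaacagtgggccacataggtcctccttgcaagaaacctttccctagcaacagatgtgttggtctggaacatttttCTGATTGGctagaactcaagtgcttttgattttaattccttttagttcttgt
B2m (chr3:129549080-129549329, plus strand): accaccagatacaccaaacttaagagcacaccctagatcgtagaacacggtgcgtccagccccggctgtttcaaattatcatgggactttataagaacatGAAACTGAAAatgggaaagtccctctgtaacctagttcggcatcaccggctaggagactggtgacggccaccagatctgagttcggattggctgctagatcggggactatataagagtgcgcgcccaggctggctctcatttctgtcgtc
The Y box letters, searched on both strands, were in 8 of 17 promoters of the class II list (47.1%) and in 3.5% of all promoters, and in 1 of the 4 class II genes that rose. The GAAA repeat, also searched on both strands, was in 23 of 45 promoters of the class I and interferon list (51.1%) and 3.92% of all, in 6 of 10 that rose and in 12 of 22 that were not called.

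Genes of macrophages and dendritic cells rose in 10 of 24 cases, with none lower (3 lower without PND540 replicate 1). Lyz2, the lysozyme of phagocytes, was at 19.5, 19.7 and 21.8 CPM and then at 150, 93.7, 55.6 and 278 CPM, 7.11-fold higher (adjusted p = 0.00243, edgeR), and Cd14, the endotoxin coreceptor, rose from 146 ± 44.8 to 563 ± 157 CPM. Gpnmb, a glycoprotein of lipid-laden macrophages, rose 3.93-fold. The count depended on single libraries: 4 rose without PND21 replicate 2, and 6 without PND21 replicate 3, PND540 replicate 1 or PND540 replicate 4. With library size alone or with the replicate number as a block 4 rose. The 4 macrophage markers summed to 82.8 to 97.1 CPM at PND21 and 66.5 to 145 CPM at PND540, which overlap, and Cd163, a scavenger receptor among them, stood at 14.4 ± 1.65 and 8.61 ± 8.58 CPM.

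Complement genes rose in 9 of 23 cases and fell in 1 (2 without PND540 replicate 4). C4b, the component cut by the classical pathway, was at 3.55, 7.44 and 3.32 CPM and then at 122, 30.4, 110 and 102 CPM (log2 fold change 4.25, SE 0.54, adjusted p = 0.00044, edgeR), and C2, its partner in the convertase, rose 8.78-fold. Cfp, properdin, the stabiliser of the alternative pathway, fell from 17.5 ± 3.48 to 6.75 ± 2.3 CPM. Among 11 chemokines the membrane-bound pair Cxcl16 and Cx3cl1 rose 4.27-fold and 3.99-fold, and Ccl5 and Pf4, chemokines of lymphocytes and platelets, were among the 3 that fell (5 by DESeq2).

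Lymphocyte genes were low at both ages. T cell markers summed to 1.09 to 3.22 CPM at PND21 and 2.11 to 5.28 CPM at PND540, and B and plasma cell markers to 0.671 to 0.998 and 2.49 to 28.9 CPM. Of 10 T and NK cell genes with at least 1 CPM at both ages 1 rose and 2 fell (1 without PND21 replicate 3): Cd4, which macrophages of the rat also carry, rose from 10.6, 10.3 and 12.3 CPM to 41.5, 51.3, 30.6 and 65.8 CPM. Jchain, the joining chain of secreted antibodies, was at 0.0739, 0.774 and 0.537 CPM and then at 1.97, 28.3, 3.32 and 2.22 CPM, with PND540 replicate 2 far above the rest. Mast cell genes fell: Cpa3, a carboxypeptidase of their granules, went from 25.8, 22.1 and 14.5 CPM to 4.91, 3.16, 4.18 and 4.85 CPM and Cma1, chymase, from 16.5 ± 5.14 to 3.89 ± 0.649 CPM, among 3 of 6 genes on that list that were lower. Without PND540 replicate 2, 3 or 4 1 gene of that list rose. Kit, the stem cell factor receptor, did not pass (adjusted p = 0.0607, edgeR), and its PND540 mean rested on replicate 4 (144 CPM against 13.4 to 18.1 CPM).

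Of 46 genes of endoplasmic reticulum folding and secretion 5 rose and 3 fell, with a median of 0.01; Calr and P4hb, a chaperone and a disulphide isomerase, did not pass (Calr 3444 ± 428 and 3089 ± 1002 CPM). Xbp1 and Atf6, regulators of the unfolded protein response, rose 2.05-fold and 2.84-fold. Spcs3, a signal peptidase subunit, went down from 453 ± 147 to 76.5 ± 21.6 CPM. The 5 rises were 2 without PND21 replicate 3 or 4 and 3 without PND540 replicate 2, and the 3 falls were 8 without PND540 replicate 3. Of 35 nuclear genes of oxidative phosphorylation 1 rose and 1 fell (7 fell with library size alone), and those calls were lost without most single libraries. Of 33 genes of cholesterol and fatty acid synthesis 6 fell and 1 rose: Srebf1, the transcription factor that drives lipid synthesis, went from 388 ± 31.8 to 204 ± 34.5 CPM and Scd2, a stearoyl-CoA desaturase, fell 2.68-fold. Without PND21 replicate 2 or 3 those 6 falls were 2, and without PND21 replicate 4 or PND540 replicate 2 they were 3; the 1 rise was lost without PND21 replicate 3 or 4.

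Genes that answer amino acid shortage fell in 8 of 34 cases (5 without PND21 replicate 2, 15 with library size alone) and rose in 2. Slc7a11, the cystine importer, was at 24.7, 10.9 and 5.27 CPM and then at 1.55, 0.809, 2.15 and 1.51 CPM, 9.02-fold lower (adjusted p = 0.00193, edgeR). Slc1a4, a neutral amino acid transporter, fell 3.65-fold and Cbs, which makes cystathionine, 2.97-fold, and Ddit4, an inhibitor of mTORC1, fell 2.65-fold. Atf4, the factor that governs the response, did not pass (447 ± 49.1 and 574 ± 140 CPM), and Atf3, induced by it, rose 3.17-fold. Among 37 antioxidant genes 5 rose (3 without PND21 replicate 2, 2 without PND21 replicate 3) and 6 fell (11 with library size alone): Mgst1, a microsomal glutathione transferase, fell from 605 ± 94.5 to 56.6 ± 16.4 CPM, and Gpx3, the secreted glutathione peroxidase, rose 6.93-fold.

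Immediate-early and stress genes rose in 7 of 21 cases and fell in 3. Klf6, a zinc finger factor, was at 12.6, 14.1 and 8.8 CPM and then at 117, 141, 74 and 123 CPM (log2 fold change 3.27, SE 0.27, adjusted p = 4.28e-05, edgeR), and Jun rose 2.93-fold. Egr1, of the same early wave, went the other way, from 21.7 ± 2.73 to 6.66 ± 2.42 CPM. The 3 falls were 1 without PND21 replicate 3 or 4 or PND540 replicate 2 or 3.

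Several of the largest changes fell on genes that nearly every cell uses, and were given by the rule for the largest folds and smallest p. Rps18, a protein of the small ribosomal subunit, stood at 2.22, 2.91 and 2.38 CPM at PND21 and at 778, 1002, 680 and 722 CPM at PND540 (log2 fold change 8.30, adjusted p = 3.76e-07, edgeR). Ptma, a small nuclear protein, and Ppia, cyclophilin A, went from 4.3 ± 0.56 to 525 ± 97 CPM and from 7.75 ± 2.07 to 471 ± 100 CPM, and Actg1, cytoplasmic gamma-actin, from 17.8 ± 2.76 to 550 ± 150 CPM. Man2b2, a lysosomal mannosidase, Taf9, a subunit of the general transcription machinery, Psme1, a proteasome activator, and Vps25, a sorting protein, rose 69.2-fold, 47.6-fold, 30.7-fold and 21.9-fold. Going down, the mitochondrial protein genes Chchd10 and Cox20 went from 84.1 ± 6.24 to 1.5 ± 0.582 CPM and from 45.6 ± 2.58 to 1.06 ± 0.345 CPM, and Hist2h4a, a histone gene, from 62.9 ± 19 to 1.05 ± 0.783 CPM. The CTR libraries, counted in the same tables, held the same steps (log2 fold change 9.44 for Rps18, 7.08 for Ptma, 5.16 for Actg1 and -4.72 for Chchd10), so that table and age cannot be told apart in them.

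The same holds for genes near 0 in one table. Fth1, ferritin heavy chain, had no count in any PND21 library, where a count of 0 allows up to 0.08 to 0.111 CPM (3 counts, counting error only), and 1308, 1124, 1659 and 1461 CPM at PND540. Rpl23a, Rps29, Fau and Rpl10a, components of the ribosome, were likewise at 0 at PND21 and at 353 to 660 CPM at PND540. Mxd3, Ugt1a9, Adh6 and Fsd1 were at 31.1 to 84.8 CPM at PND21 and at most 0.211 CPM at PND540. The ribosomal protein list as a whole had 9 genes higher and 5 lower of 47 with at least 1 CPM at both ages, and a median of -0.10; Rplp0, a stalk protein, was 1983 ± 355 and 1795 ± 174 CPM. Its rises were 5 without PND21 replicate 2 or 3, and its falls 2 without PND21 replicate 3 or 4.

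Other genes given by the rule for large folds belong to no list. Btn1a1, a butyrophilin, rose 39.9-fold and Lpp, an adhesion protein of long genomic span, from 2.92, 1.73 and 0.403 CPM to 71.7, 93.9, 66.7 and 118 CPM. C1qtnf6, a secreted C1q-like protein, fell 28.2-fold, to 1.51, 0.736, 0.943 and 1.65 CPM from 25.9, 39 and 37.9 CPM, and Clec2g, a C-type lectin, 33.5-fold. Chtop, an mRNA export factor, was among the smallest p: 143, 128 and 134 CPM and then 14.5, 15, 16.2 and 12.3 CPM.

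The change with age was then compared with that in CTR, tested as the difference of the log2 fold changes (the age by diet term of a fit of all 16 libraries). In CTR alone 30.5% of 13510 genes were called between the ages, 2336 higher and 1781 lower. Of 14178 genes tested for a difference between diets 13 were called (0.0917%), all of them with the lower log2 fold change in GLLP, and 733 had an unadjusted p under 0.05. DESeq2 called 46, of which 2 rose more in GLLP, and leaving out each library in turn gave 7 to 16 calls. The lowest count, 7, came without PND21 GLLP replicate 2; 8 were called without PND21 CTR replicate 2 or 3 or PND21 GLLP replicate 3.

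Of the 13, 9 were on the skeletal muscle list, and the others were Eef1a2, Eno3, Cox6a2 and Them5, named after their values were seen to complete the count; Eef1a2, Eno3 and Cox6a2 encode the muscle forms of an elongation factor, an enolase and a cytochrome oxidase subunit. Only Mylpf and Eno3 had at least 1 CPM in each of the 4 groups. The other 11 had a mean under 1 CPM in at least 1 group and their highest mean in the PND21 GLLP libraries. Those low in every other library, such as Myh3 (at most 0.272 CPM there), passed the filter only through the PND21 GLLP libraries. Mylpf had a difference of -4.71 (SE 0.41, adjusted p = 8.21e-05, edgeR): scaled over all 16 libraries it was 55.3 ± 12.9 CPM in GLLP and 3.16 ± 0.411 CPM in CTR at PND21, and 4.5 ± 0.246 CPM in GLLP and 6.73 ± 3.14 CPM in CTR at PND540. Eno3 was 32.7 ± 6.14 CPM in GLLP and 7.81 ± 0.503 CPM in CTR at PND21 and 5.05 ± 1.06 and 7.09 ± 2.7 CPM at PND540 (difference -2.56, adjusted p = 0.00812, edgeR). Myl1, a further fast myosin light chain, was at 49.2 to 71.5 CPM in the GLLP libraries at PND21 and at 0.0665 to 0.257 CPM in the CTR libraries. In the median log2 level of the skeletal muscle genes, each centred over all 16 libraries, the GLLP libraries at PND21 lay at 1.96 to 2.2. No other library lay above 0.632. Whether the samples differed in attached muscle was not tested.

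The main groups otherwise moved in both diets, and no gene on their lists was called for a difference. List medians in GLLP and CTR were -2.08 and -1.85 for the cell cycle, -2.83 and -2.56 for collagens, -2.00 and -1.73 for elastic fibres, -0.93 and -1.20 for smooth muscle and 0.60 and 0.88 for luminal genes. Further apart were class II genes (0.19 and 1.69), macrophage genes (0.64 and 1.62), adipocyte genes (1.69 and 0.77) and ribosomal protein genes (-0.10 and 1.07). Basal epithelial genes had medians of -0.74 and -0.27, with 8 of 15 lower in GLLP and 2 in CTR. The 5 urothelial genes had medians of opposite sign (-0.77 and 1.87). No gene of these 2 lists was called for a difference. For ribosomal protein genes 41 of 47 had an unadjusted p under 0.05 for the difference and none passed adjustment (smallest adjusted p 0.738, edgeR). PND540 CTR replicate 5 stood apart for these genes, at a median centred log2 level of 1.68 against -0.094 to 0.304 in the other CTR libraries of that age. Without it the median difference between diets went from -1.05 to -0.615 (smallest adjusted p 0.375, edgeR). Cd74 rose by 1.93 in GLLP and by 3.78 in CTR on the log2 scale, and RT1-Da by 1.56 and 3.22, without a called difference.

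**Figure D5:**
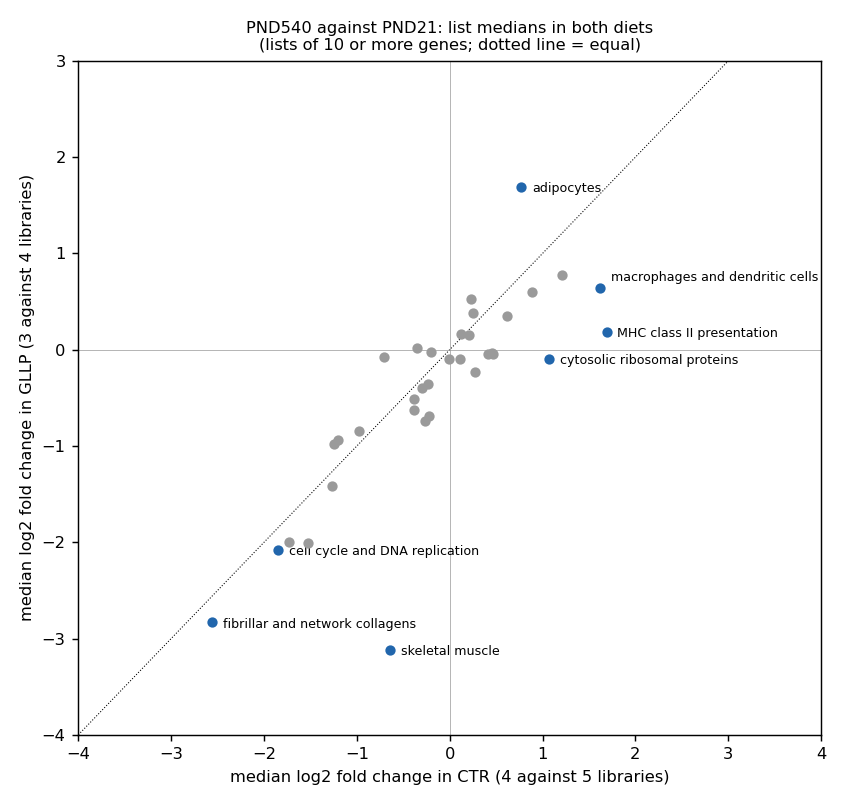
Median log2 fold change, PND540 against PND21, of 35 gene lists of 10 or more genes in CTR (x axis) and in GLLP (y axis); the dotted line marks equal medians and blue points are the lists named. Collagen and cell cycle genes lie near the line, the skeletal muscle list lies below it (-3.12 in GLLP, -0.64 in CTR), and macrophage, class II and ribosomal protein genes lie to its right.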

How the data were processed

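Total RNA of flash-frozen ventral prostate was extracted with Trizol and sequenced from Illumina libraries, per the labels' protocols. The deposited files hold raw counts per gene symbol in 1 table for each age. The submitters' processing notes list STAR, edgeR 3.34.0 and Rnor_6.0 as the build; neither the annotation of each table nor the sequencing runs are given in the sources used here.

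Counts were joined on symbols that occur once in both tables, and library sizes are the totals over these genes. Genes passing filterByExpr were scaled by the trimmed mean of M values and tested with edgeR 4.0.16 (glmQLFit and glmQLFTest, robust) on the 7 GLLP libraries, with Benjamini-Hochberg adjustment over 13694 genes at a threshold of 0.05. The difference between diets was the age by diet term over all 16 libraries. No column of values was left unused (0 columns). A count of 0 allows up to 3 counts. Intervals of this kind cover counting error only.

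The genes named are, among those called with at least 1 CPM at both ages, without overlap and with 5 CPM or more at the higher age, the 12 largest folds and 5 smallest p in each direction. Per list they are the 4 smallest p, every call where 4 or fewer were made, the 2 highest levels and up to 3 calls against the list's median. All secretoglobins and steroid genes, the 5 highest near-0 genes and the 5 highest genes of each age, up to 5 calls for the difference between diets with 1 CPM or more in every group, and the markers complete the rule. Some genes that the rule names are not reported here. Others are said to be named after their values were seen. The genes and lists were chosen with earlier results of these data known. In simulated counts over 13525 genes of this comparison, with changes set in 200 genes, 24.5% of 2-fold and 79.6% of 4-fold changes were called. With so few changed genes the adjustment was stricter than in the data. Alternatives were other scalings, filters and tests (DESeq2 1.42.0 and glmTreat), a replicate block, a joint fit, and leaving out each library. Promoter sequences are RefSeq's (GRCr8), found for 73 listed cell cycle genes.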

Additional observations from a re-analysis of the deposited data

Results flagged for a closer look

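Among the 228 genes and lists examined for 1 library far from the other 3 at PND540 (its gap to the nearest library as a share of the range, given in brackets, past Dixon's critical value; genes with at least 1 CPM at PND540), 19 stood out, where chance gives about 1 in 20. PND540 replicate 2 was far below the rest for Col1a1 (0.903), Col1a2 (0.89), Col3a1 (0.906), Loxl2 (0.841), Eng (0.87), Plvap (0.856) and C4b (0.873), and far above for Foxa1 (0.844). PND540 replicate 4 was far above the rest for B2m (0.833), Cdkn2b (0.901), Kit (0.874), Psme1 (0.854), Rfx5 (0.884) and the mean of the urothelium list (0.951), and far below for Acsl1 (0.919). Replicate 1 was far above for Actg1 (0.961), and replicate 3 far below for Pf4 (0.918) and Krt14 (0.969) and far above for the mean of the endoplasmic reticulum list (0.865).

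The change with age differed between GLLP and CTR, by the age by diet term, for Mylpf (difference of -4.71 on the log2 scale), Myl1 (-8.17), Eef1a2 (-5.31), Eno3 (-2.56), Cox6a2 (-5.48) and Them5 (-6.71). Only Mylpf and Eno3 had at least 1 CPM in all 4 groups. Them5 had 0 CPM in every PND540 GLLP library and Cox6a2 0.0369 to 0.22 CPM, so their fitted differences depend on the prior count and are no bounds.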

How the results depend on the processing

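Against a 2-fold change (glmTreat) 2054 genes were called, 1019 higher and 1035 lower, of which 1139 had at least 1 CPM at both ages (579 higher, 560 lower). Leaving out each library gave 3434 to 5239 calls over all genes and 2433 to 3994 among genes of at least 1 CPM at both ages (1315 to 2060 higher and 1118 to 1934 lower, with the lowest counts without PND21 replicate 3). For the difference between diets it gave 7 to 16 calls, with 8 without PND21 CTR replicate 2 or 3 or PND21 GLLP replicate 3, and DESeq2 called 46. Library size alone gave 1965 higher and 2916 lower over all genes. With single libraries left out, the median of the androgen-responsive list ran from -0.18 (without PND540 replicate 3) to 0.0107 (without PND540 replicate 2). With library size alone it was -0.279, and that of the steroid list was -0.00974; the cause was not tested. The replicate numbers do not pair the libraries (same-number correlations of 0.172, -0.242 and -0.0441). With the number as a replicate block, which drops PND540 replicate 1, 3754 genes were called, 1947 higher and 1807 lower, and 11 for the difference between diets. In simulated counts a 1.5-fold change was seldom called (2.13%), so genes not called may still differ. Only 200 genes were changed in that simulation, while 36.2% of genes were called in the data. Adjustment was therefore stricter in the simulation, and its shares do not give the share of such changes called here.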

Other observations

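Genes of polyamine metabolism, which is very active in the prostate because its secretion is rich in spermine, moved in both directions: of 15 genes with at least 1 CPM at both ages 3 rose (1 without PND21 replicate 3) and 3 fell. Odc1, ornithine decarboxylase, the first enzyme of the route, stood at 959, 1206 and 1359 CPM at PND21 and at 657, 804, 644 and 498 CPM at PND540 (log2 fold change -0.85, adjusted p = 0.0112, edgeR; the call was lost with the replicate block). Every PND21 library was above every PND540 library. Oaz2, an antizyme that sends ornithine decarboxylase to breakdown, rose from 43.2 ± 3.07 (SD, n = 3) to 77.8 ± 13.1 CPM (SD, n = 4), and Arg1, the arginase that supplies ornithine, fell from 3.98 ± 0.291 to 1.15 ± 0.486 CPM.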
